A study of Sus scrofa with 8 samples.

Results

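Complement and coagulation proteins are serine proteases, cofactors, inhibitors and structural proteins that the liver secretes into blood plasma. A list of 46 genes of both systems was followed in the liver of sows (Sus scrofa, the domestic pig) that were lactating or not. A gene was taken where a probe set of the Affymetrix porcine array, a group of short oligonucleotides for one transcript, carried its symbol in the deposited table, which gave 26 genes with 34 probe sets. Another 9 genes (C8A, C8B, C8G, C9, CFD, CFI, CFP, SERPIND1 and VKORC1) were reached once symbols were updated through their Entrez identifiers, so that 35 of the 46 were measured with 47 probe sets. The other 11 (C6, F7, F10, F11, F13B, FGB, GGCX, MASP1, MASP2, SERPINF2 and TFPI) were not analysed here. Where a gene had several probe sets, the one with the highest mean signal was used.

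The study compared lactating with non-lactating sows, the latter being labelled control. Each group had 8 sows, whose RNA was combined in equal amounts from 2 animals into 4 pools, and each pool was hybridised to 1 array. The replicate is therefore the pool, with n = 4 per group and 8 arrays from 16 sows. All samples were liver of females, and breed, age, parity and day of lactation are not stated in the labels. Values are log2 signals, on which a difference of 1 is a doubling, and a difference is lactating minus non-lactating throughout, with its standard error. Signals of different probe sets are not comparable as transcript levels. The array means of log2 signal lay between 6.79 and 6.80, and the signals of single probe sets between 2.75 and 15.22. The hepatocyte marker ALB was near the top of that range.

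Complement is a cascade of plasma proteases that is started by antibodies, by lectins such as mannose-binding lectin or by spontaneous activation of C3, and that ends in a pore built from C5 to C9. Coagulation runs through contact phase, vitamin K dependent and cofactor proteins to thrombin, which turns fibrinogen into fibrin, and plasmin dissolves fibrin again. Clotting factors II, VII, IX and X and the anticoagulant proteins C and S need a carboxylation in the hepatocyte that consumes reduced vitamin K, and VKORC1 regenerates that cofactor. Hepatocytes make most of these proteins, and several of them change in plasma during inflammation and pregnancy.

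VKORC1 rose in lactating livers by 1.01 ± 0.13, C2 rose by 0.61 ± 0.14, and CFD fell by 0.58 ± 0.09 on the log2 scale. The remaining 32 of the 35 measured members did not pass the test. The test was limma's moderated test over all 23999 probe sets, with Benjamini-Hochberg adjustment and a threshold of 0.05. Among the 26 genes with a deposited symbol, C2 alone was called, which is 3.85%, while 8.61% of all 8238 genes so named were called. Among the 35 genes under either symbol, 3 were called, or 8.57%, against 8.64% of the 8144 genes under updated symbols. Both shares are near the background or below it. The median difference was 0.02 over the 26 genes and 0.00 over the 35, beside 0.01 over all genes with a deposited symbol, and the median absolute difference was 0.13 over the 35 beside 0.14 over all genes. Differences lay within 0.2 for 24 of the 35. Of the 35 members, 25 had a mean log2 signal of 12 or more, and the largest absolute difference among these bright ones was 0.34. Some dimmer probe sets of the same genes differed by more, as given further on. Whether differences are understated at bright signals was not tested. In bulk liver, fewer cells of a type and less RNA per cell cannot be told apart.

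**Figure D1:**
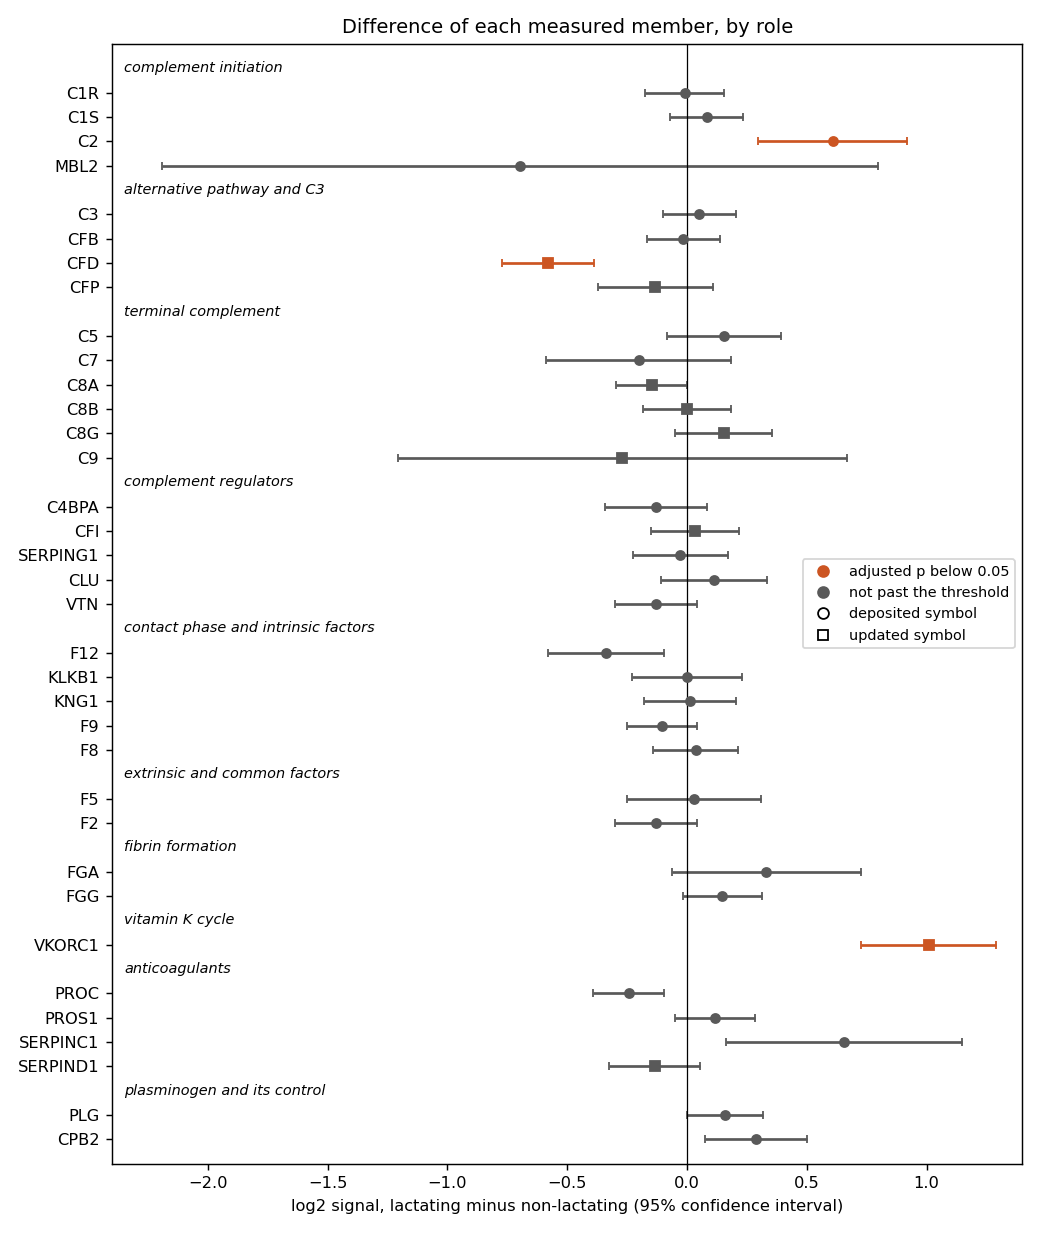
Difference of each of the 35 measured members on the log2 scale (lactating minus non-lactating, x axis) with its 95% confidence interval, in blocks by role, with circles for deposited and squares for updated symbols. VKORC1 at 1.01, C2 at 0.61 and CFD at -0.58 are the 3 members past the threshold, while the intervals of MBL2 and C9 are the widest.

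The vitamin K cycle was represented by VKORC1, the vitamin K epoxide reductase subunit that coumarin drugs inhibit. Its log2 signals were 10.87, 11.14, 11.03 and 10.70 in non-lactating pools 1 to 4 and 11.94, 12.12, 11.66 and 12.05 in lactating pools 1 to 4. Every lactating pool lay above every non-lactating pool, with 0.52 between the groups. The difference of 1.01 ± 0.13 corresponds to a 2.01-fold higher signal (95% confidence interval 0.73 to 1.29 on the log2 scale, adjusted p = 0.00930), and it passed the threshold with each of the 8 pools left out in turn. An equal variance test in place of limma, which called no probe set at all, gave an adjusted p of 0.0526 for VKORC1 and for CFD and 0.116 for C2. The VKORC1 probe set is aligned at chr3:15891254-15894029 on the plus strand in the deposited table, where the assembly is not spelled out. GGCX, the carboxylase that uses the cofactor, was not analysed here. VKORC1L1, the paralog of VKORC1, was not past the threshold (0.13 ± 0.11, adjusted p = 0.546). The difference between the paralogs was not tested.

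Of the 4 measured vitamin K dependent members, 1 had a positive and 3 a negative difference, and none passed the test. Their median was -0.12, and all 4 confidence intervals lay within 0.5 of no difference. F2, prothrombin, had log2 signals of 13.17, 13.20, 13.20 and 13.31 in non-lactating and 13.13, 13.20, 13.08 and 12.96 in lactating pools (-0.13 ± 0.08, adjusted p = 0.357). Its groups overlapped. F9, the factor missing in haemophilia B, read 13.92, 13.83, 13.88 and 13.85 against 13.83, 13.72, 13.76 and 13.76 in lactating pools (-0.10 ± 0.07, adjusted p = 0.392). The groups did not overlap, yet the nearest pools were 0.0005 apart. PROS1, the cofactor of activated protein C, had 12.70, 12.92, 12.90 and 12.80 against 12.97, 12.93, 12.998 and 12.90 in lactating pools, with overlapping groups (0.12 ± 0.08, adjusted p = 0.398).

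PROC, the anticoagulant protease protein C, was the vitamin K dependent member nearest to the threshold. Non-lactating pools gave 13.40, 13.37, 13.41 and 13.43 and lactating pools 13.21, 13.21, 13.13 and 13.09. The groups were separate and each was tight, with an SD of 0.02 and 0.06. The difference of -0.24 ± 0.07 had an adjusted p of 0.0569. It passed in 0 of the 8 repeats with 1 pool left out and in 2 of 9 other settings, cyclic loess normalisation (adjusted p = 0.0267) and a trended, robust variance estimate (0.0378), while the adjusted p reached 0.567 in the other 7.

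**Figure D2:**
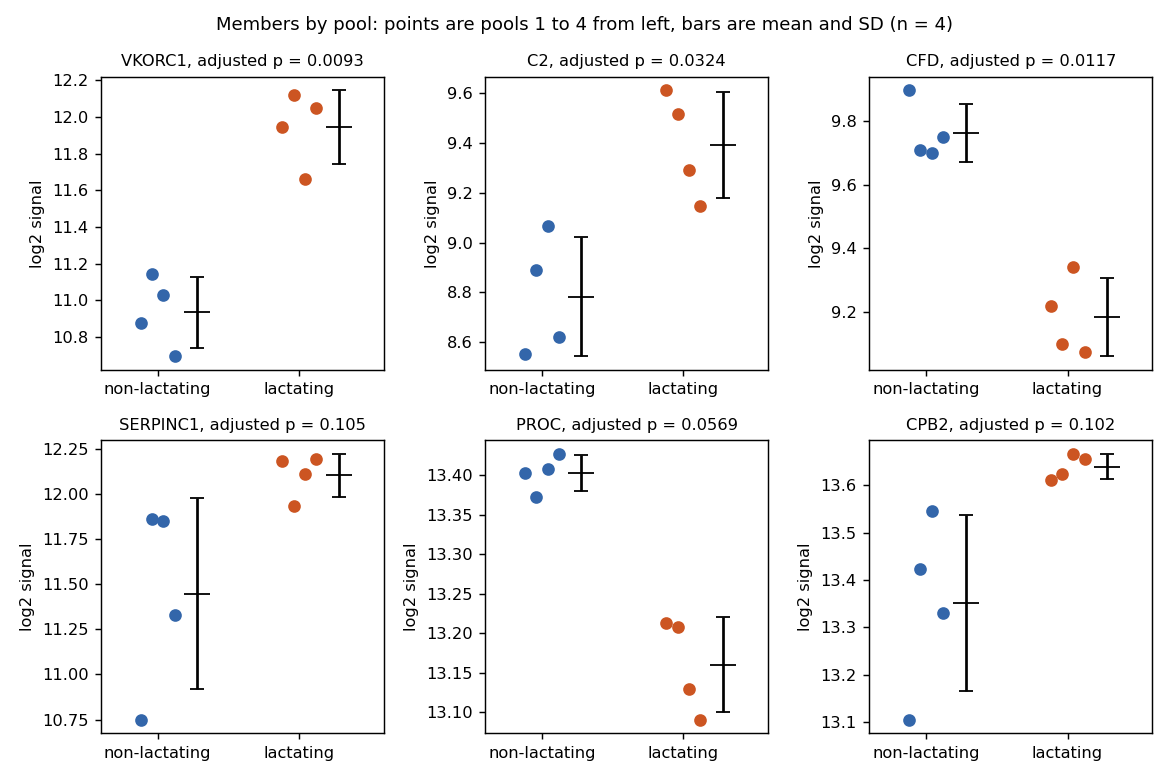
Log2 signal (y axis, a separate scale in each panel) of VKORC1, C2, CFD, SERPINC1, PROC and CPB2 in the 4 non-lactating (blue) and 4 lactating (orange) pools, with the mean and SD of each group and the adjusted p of limma. In all 6 panels the groups do not overlap, and in C2, SERPINC1 and CPB2 non-lactating pool 1 is the lowest, at 8.55, 10.75 and 13.11.

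In the initiation of complement, C2 was the member that changed. C2 is the serine protease precursor that supplies the catalytic chain of the classical and lectin pathway C3 convertase. Its log2 signals were 8.55, 8.89, 9.07 and 8.62 in non-lactating and 9.61, 9.52, 9.29 and 9.15 in lactating pools. The groups did not overlap, with 0.08 between the highest non-lactating and the lowest lactating pool. The difference of 0.61 ± 0.14 (1.52-fold, 95% confidence interval 0.30 to 0.92, adjusted p = 0.0324) lost the call in 6 of 8 repeats with 1 pool left out, where the adjusted p was 0.0519 to 0.0915. Those pools were non-lactating 1, 2 and 4 and lactating 1, 2 and 3. The alignment is chr7:27842488-27855769 on the plus strand, and the alignment of a CFB probe set begins 647 bases beyond its end.

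C1R and C1S, the proteases of the first component, were among the bright and steady members. C1S read 13.89, 13.93, 13.92 and 13.85 in non-lactating and 13.998, 14.07, 13.92 and 13.93 in lactating pools (0.08 ± 0.07, adjusted p = 0.534). All 8 pools of C1R lay between 13.93 and 14.13 (-0.01 ± 0.07, adjusted p = 0.962). The groups of both genes overlapped.

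MBL2, mannose-binding lectin, varied more between pools than between groups. Its log2 signals were 10.52, 11.29, 11.16 and 9.14 in non-lactating and 10.72, 11.14, 8.06 and 9.40 in lactating pools. Lactating pool 3 was the lowest and non-lactating pool 2 the highest, 3.23 apart, and the groups overlapped. The difference of -0.70 ± 0.67 had a 95% confidence interval of -2.19 to 0.80 (adjusted p = 0.598). FCN2, a ficolin that starts the same pathway and lies outside the 46 genes, was also widely spread, from 8.59 to 11.47 (-0.52 ± 0.53, adjusted p = 0.624).

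In the alternative pathway, CFD fell. CFD is complement factor D, or adipsin, the protease that cleaves factor B, and in mouse and human it is known as a product of fat cells. Its log2 signals were 9.90, 9.71, 9.70 and 9.75 in non-lactating and 9.22, 9.10, 9.34 and 9.07 in lactating pools. All lactating pools lay below all non-lactating pools, by at least 0.36. The signal was 1.496-fold higher in non-lactating pools (difference -0.58 ± 0.09, 95% confidence interval -0.77 to -0.39, adjusted p = 0.0117), and the call held with each of the 8 pools left out in turn. The probe set is aligned at chr2:46145799-46147976 on the plus strand. Of 4 listed adipocyte markers 2 were measured, and neither passed the test: ADIPOQ differed by 0.05 ± 0.08 (adjusted p = 0.806) and LEP by -0.13 ± 0.09 (adjusted p = 0.439). The mean log2 signal of these 2 was 5.33 to 5.42 in non-lactating and 5.21 to 5.43 in lactating pools, and ADIPOQ averaged 4.35, within the dimmest 30% of probe sets, which ended at 5.25. The part of fat cells in the CFD result was not tested.

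C3, the central component, was bright and varied little. It read 14.68, 14.72, 14.75 and 14.67 in non-lactating and 14.83, 14.79, 14.73 and 14.68 in lactating pools (0.05 ± 0.07, adjusted p = 0.718), with overlapping groups. CFP, properdin, which stabilises the alternative convertase, had signals of 8.10, 8.16, 8.04 and 8.45 against 7.98, 8.25, 7.95 and 8.03 in lactating pools (-0.13 ± 0.11, adjusted p = 0.523). CFB, the substrate of factor D, lay between 14.25 and 14.40 in all pools (-0.02 ± 0.07, adjusted p = 0.933). A second CFB probe set gave another difference and is taken up with the other genes that had several.

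None of the 6 measured terminal components passed the test, 3 having a positive and 3 a negative difference. C8A, the alpha chain of the eighth component, read 12.53, 12.59, 12.54 and 12.58 in non-lactating and 12.50, 12.40, 12.38 and 12.38 in lactating pools (-0.15 ± 0.07, adjusted p = 0.224). The groups did not overlap, with 0.03 between them. C8G, its lipocalin-like gamma chain, had 13.29, 13.23, 13.16 and 13.17 against 13.48, 13.51, 13.17 and 13.31 in lactating pools (0.15 ± 0.09, adjusted p = 0.357). C5, the source of the C5a anaphylatoxin, had 12.64, 12.65, 12.86 and 12.63 against 13.12, 12.85, 12.69 and 12.73 in lactating pools (0.15 ± 0.11, adjusted p = 0.445). Both sets of groups overlapped. C8B differed by 0.00 ± 0.08, with pools from 13.03 to 13.30, and C7 by -0.20 ± 0.17, with pools from 8.15 to 8.95.

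C9, which forms the pore, was spread widely within the lactating group. Its signals were 9.61, 9.70, 9.27 and 8.86 in non-lactating and 10.42, 9.22, 8.60 and 8.12 in lactating pools. Lactating pool 1 was the highest of the 8 and lactating pool 4 the lowest, 2.30 apart, against a range of 0.84 in the non-lactating group. The difference was -0.27 ± 0.42 (adjusted p = 0.772). MBL2, C9 and SERPINC1 were the 3 members with an SD above 0.5 in a group, while the median SD of the members was 0.10 in the non-lactating and 0.11 in the lactating group.

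The 5 complement regulators all differed by less than 0.2, and none passed. VTN, vitronectin, which blocks insertion of the pore, read 14.29, 14.25, 14.33 and 14.27 in non-lactating and 14.19, 14.17, 14.27 and 14.003 in lactating pools (-0.13 ± 0.08, adjusted p = 0.351). C4BPA, the alpha chain of the C4b-binding protein, had 12.83, 13.005, 12.66 and 12.80 against 12.82, 12.56, 12.62 and 12.77 in lactating pools (-0.13 ± 0.10, adjusted p = 0.472). CLU, clusterin, another fluid-phase inhibitor of the pore, had 13.31, 13.70, 13.56 and 13.38 against 13.68, 13.57, 13.67 and 13.48 in lactating pools (0.11 ± 0.10, adjusted p = 0.563). The groups overlapped for these 3. CFI, the protease that degrades C3b, and SERPING1, the C1 inhibitor, differed by 0.03 ± 0.08 and -0.03 ± 0.09.

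**Figure D3:**
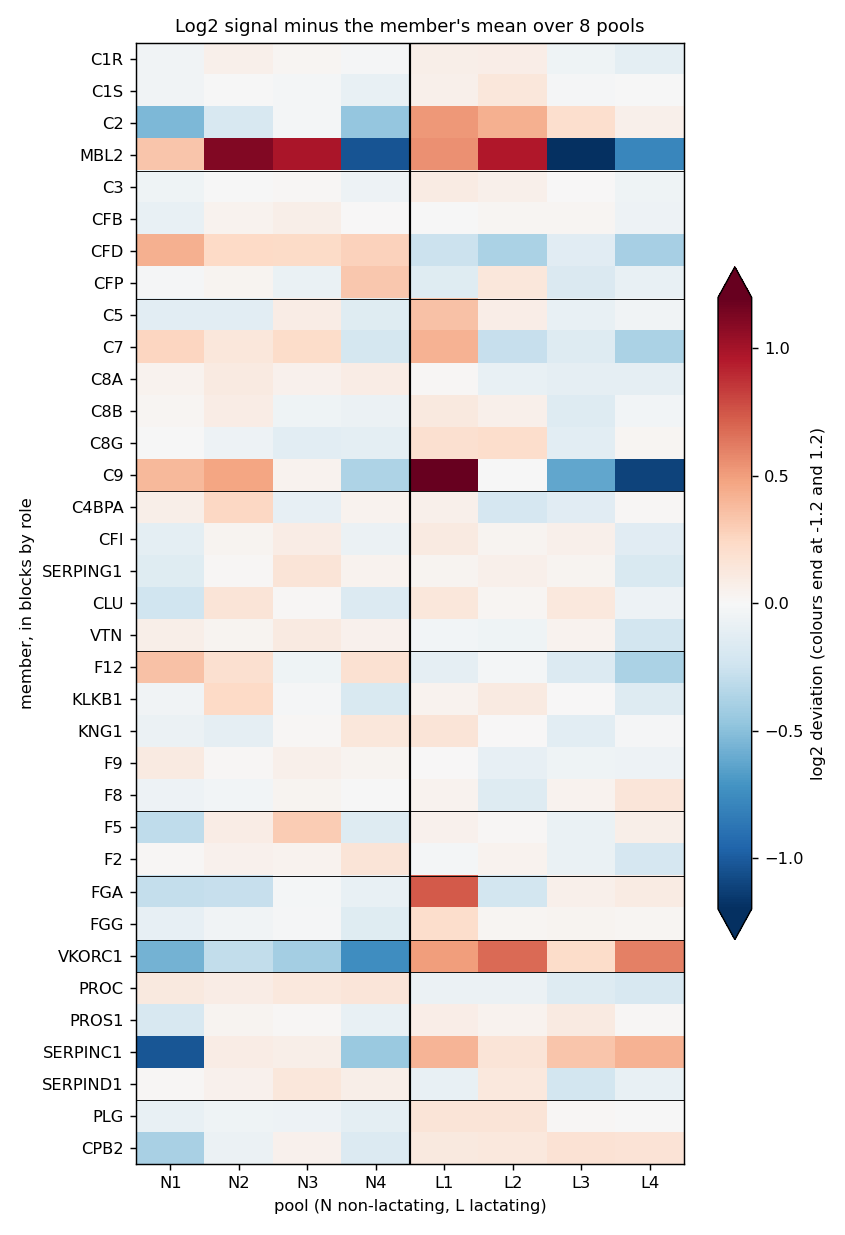
Log2 signal of the 35 members (rows, in blocks by role) in the 8 pools (columns, N for non-lactating and L for lactating) as deviation from the member's mean over all pools, in colour. VKORC1, C2 and CFD change colour between the groups, MBL2 and C9 vary within groups, and lactating pool 1 is the highest of its group for 16 members while lactating pool 4 is the lowest for 18.

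Of the contact phase and intrinsic factors, none of the 5 measured passed. F12, the contact activation protease, had the lowest p. It read 12.70, 12.54, 12.30 and 12.53 in non-lactating and 12.23, 12.32, 12.19 and 11.96 in lactating pools, with an overlap between non-lactating pool 3 and lactating pool 2 (-0.34 ± 0.11, adjusted p = 0.0915). KNG1, kininogen, which yields bradykinin, had 12.79, 12.75, 12.87 and 12.99 against 13.01, 12.86, 12.73 and 12.84 in lactating pools (0.01 ± 0.09, adjusted p = 0.958). F8, the factor missing in haemophilia A, read 4.97, 5.001, 5.06 and 5.03 against 5.07, 4.88, 5.08 and 5.18 in lactating pools, within the dimmest 30% of probe sets (0.04 ± 0.08, adjusted p = 0.851). In mouse, liver F8 is known to come chiefly from endothelial cells. KLKB1, plasma prekallikrein, lay between 12.29 and 12.71 and differed by 0.00 ± 0.10.

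In the common pathway, F5, the cofactor of activated factor X, read 11.48, 11.88, 12.09 and 11.64 in non-lactating and 11.84, 11.81, 11.71 and 11.86 in lactating pools (0.03 ± 0.12, adjusted p = 0.927). The spread of the non-lactating pools was 0.61 and that of the lactating pools 0.15, and the groups overlapped.

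Both measured fibrinogen chains had positive differences, and neither passed. FGA, the alpha chain, read 13.34, 13.36, 13.61 and 13.54 in non-lactating and 14.36, 13.40, 13.69 and 13.73 in lactating pools (0.33 ± 0.18, adjusted p = 0.303). Lactating pool 1 was the highest by 0.63 and lactating pool 2 lay within the non-lactating range. FGG, the gamma chain, read 14.21, 14.26, 14.29 and 14.16 against 14.51, 14.33, 14.34 and 14.33 in lactating pools (0.15 ± 0.07, adjusted p = 0.270). All lactating pools lay above all non-lactating pools, and lactating pool 1 was again the highest.

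Acute phase proteins, whose secretion by the liver changes in inflammation, are given beside fibrinogen. The list holds proteins that rise, such as CRP, and proteins that fall, such as ALB, TTR, TF and RBP4. Of the 12 measured of 14 listed, 3 rose and 9 did not pass: CRP by 1.41 ± 0.33 (adjusted p = 0.0367), LBP, which binds bacterial lipopolysaccharide, by 1.48 ± 0.33 (adjusted p = 0.0311) and ORM1 by 0.57 ± 0.10 (adjusted p = 0.0171). The share called was 25.0%, beside 8.64% of all genes under updated symbols. The mean log2 signal of the list was 12.41 to 12.58 in non-lactating and 12.68 to 13.15 in lactating pools. As the list mixes both kinds of protein, neither the share nor this mean measures an acute phase response. CRP read 13.29 in lactating pool 1, the highest of the 8 pools, against 11.94 to 12.65 in the other lactating pools. ITIH4, another acute phase protein of pigs, read 14.53 in that pool against 13.30 to 13.81 in the other lactating pools, and its difference did not pass (0.35 ± 0.23, adjusted p = 0.416). Without lactating pool 1, the limma difference was 0.14 ± 0.11 for FGA (adjusted p = 0.508) and 0.10 ± 0.07 for FGG (adjusted p = 0.450). A link between the acute phase and fibrinogen values of this pool was not tested.

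The 4 measured anticoagulants had 2 positive and 2 negative differences. SERPINC1, antithrombin, read 10.75, 11.86, 11.85 and 11.33 in non-lactating and 12.18, 11.93, 12.11 and 12.19 in lactating pools. The groups were separate by 0.07, and non-lactating pool 1 lay 0.58 below the next pool. The difference of 0.66 ± 0.22 had an adjusted p of 0.105. SERPIND1, heparin cofactor II, had 12.76, 12.80, 12.88 and 12.82 against 12.66, 12.87, 12.53 and 12.66 in lactating pools, with overlapping groups (-0.13 ± 0.09, adjusted p = 0.394).

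PLG and CPB2, the members of the plasminogen system, were both higher in every lactating than in every non-lactating pool without passing the test. PLG, the precursor of plasmin, read 14.16, 14.20, 14.19 and 14.13 in non-lactating and 14.41, 14.40, 14.26 and 14.25 in lactating pools (0.16 ± 0.07, adjusted p = 0.216). CPB2, the carboxypeptidase that protects fibrin from plasmin, read 13.11, 13.42, 13.54 and 13.33 against 13.61, 13.62, 13.67 and 13.66 in lactating pools (0.29 ± 0.10, adjusted p = 0.102). The range of CPB2 was 0.055 over the lactating and 0.44 over the non-lactating pools.

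The groups did not overlap for 7 of the 26 genes with a deposited symbol, beside 19.2% of all genes so named, and for 10 of the 35 under either symbol, beside 19.4% of all genes under updated symbols. The 10 were C2, CFD, C8A, F9, FGG, VKORC1, PROC, SERPINC1, PLG and CPB2, with 6 higher and 4 lower during lactation.

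The 8 members with several probe sets (C7, C8B, C8G, CFB, CFP, F9, KNG1 and SERPIND1) had 12 further probe sets, of which 7 gave the sign of the one chosen. Of all 47 member probe sets, 6 were called, 4 higher and 2 lower, while 6.85% of the 23999 probe sets were called. The 3 calls beyond VKORC1, C2 and CFD came from dimmer probe sets of SERPIND1, C8G and KNG1. With 1 pool left out in turn, the SERPIND1 call was lost in 6 of 8 repeats, all but those without non-lactating pools 2 and 3, the C8G call in 7, all but that without lactating pool 3, and the KNG1 call in 5, all but those without these 3 pools, with adjusted p up to 0.110, 0.117 and 0.0662.

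In 7 of these genes the probe sets lay one after the other along the transcript. Against the most 3' probe set of the same gene, the signal of an upstream one was relatively higher in lactating pools for 7 of 9 pairs and lower for 2. The F9 pairs share their 3' probe set, so the 9 pairs are not independent. Some of the positive differences were small, such as 0.07 and 0.09 in F9. The upstream CFB probe set read 6.51, 7.55, 7.65 and 7.41 in non-lactating and 8.10, 7.81, 8.15 and 8.24 in lactating pools, a difference of 0.80 ± 0.23 (adjusted p = 0.0640), while the 3' one differed by -0.02. The upstream SERPIND1 probe set read 7.83, 8.50, 8.55 and 8.23 against 8.90, 8.86, 8.72 and 9.02 in lactating pools, and it rose by 0.60 ± 0.15 (adjusted p = 0.0441), while the 3' one differed by -0.13. Non-lactating pool 1 was the lowest in both.

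For CFB, the upstream minus 3' value averaged -7.06 ± 0.46 in non-lactating pools against -6.25 ± 0.22 in lactating ones (SD, n = 4 each), and the groups were separate. For SERPIND1 it was -4.54 ± 0.29 and -3.81 ± 0.15 (SD, n = 4 each), again without overlap. Each had an exact permutation p of 0.0286, 2-sided, the smallest that 4 pools against 4 allow, and 0.129 after adjustment over the 9 pairs. For C8G the upstream probe set rose by 0.42 ± 0.11 (adjusted p = 0.0470) and the 3' one differed by 0.15, and the relative difference of 0.26 did not separate the groups (exact permutation p = 0.0571, adjusted 0.171). The other 6 pairs had exact permutation p values of 0.0857 to 0.771.

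**Figure D4:**
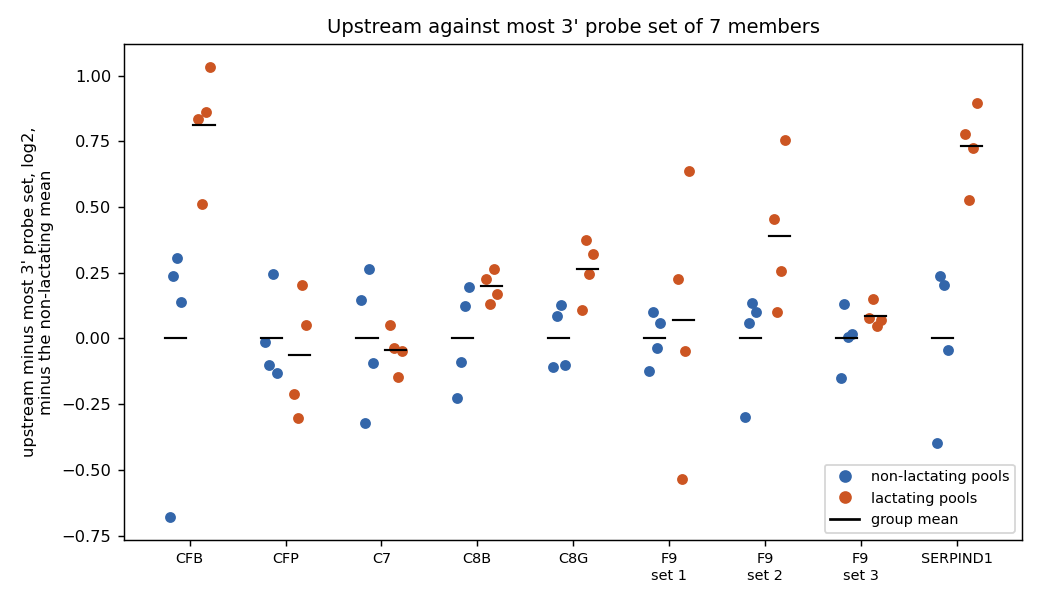
Log2 signal of an upstream probe set minus that of the most 3' probe set of the same gene, shifted so that the non-lactating mean is 0 (y axis), for 9 pairs in 7 members (x axis), with 1 point per pool, blue for non-lactating and orange for lactating, and a line at each group mean. The groups are separate for CFB and SERPIND1, whose lactating means lie 0.81 and 0.73 above the non-lactating ones, and overlap for the other 7 pairs.

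KNG1 had 4 probe sets. One of them, dimmer than that chosen for the gene, fell by 0.61 ± 0.13 on the log2 scale (adjusted p = 0.0279). It read 12.35, 11.82, 11.78 and 11.96 in non-lactating and 11.16, 11.38, 11.55 and 11.37 in lactating pools, without overlap. A probe set against the opposite strand of that alignment differed by -0.04, and the remaining pair, which share another alignment at the locus, by 0.01 and 0.16. Kininogen transcripts end in alternative exons, and which of them each probe set detects was not tested.

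A reading of RNA integrity moved with the groups and belongs beside these values. The signal of 3' minus 5' control probe sets, averaged over GAPDH, actin and EF1a, was 5.02, 4.21, 4.14 and 4.49 in non-lactating and 3.90, 4.00, 3.75 and 3.34 in lactating pools. The groups did not overlap (means 4.47 ± 0.40 and 3.75 ± 0.29, SD, n = 4 each, exact permutation p = 0.0286), and non-lactating pool 1 had the highest value. That pool gave the lowest signal of its group for 15 of the 35 members, among them C2, SERPINC1 and CPB2. The upstream CFB and SERPIND1 probe sets were also lowest there. Taken singly, GAPDH separated the groups (-1.08, exact permutation p = 0.0286). Actin (-0.62, exact permutation p = 0.0571) and EF1a (-0.47, exact permutation p = 0.0857) overlapped. With the mean 3' minus 5' signal as a covariate in limma, none of the 23999 probe sets was called, and 2474 had an unadjusted p below 0.05. Among the 35 members, 3 then had an unadjusted p below 0.05, and these were VKORC1, C2 and CFD.

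In that fit VKORC1 was 0.89 ± 0.20 (adjusted p = 0.289), C2 0.52 ± 0.22 (adjusted p = 0.474) and CFD -0.45 ± 0.13 (adjusted p = 0.343). Over the 35 members the median absolute shift was 0.059, and each of these 3 moved by more than that. SERPINC1 moved from 0.66 to -0.03, C9 from -0.27 to 0.41, F5 from 0.03 to -0.28, F12 from -0.34 to -0.04, CPB2 from 0.29 to 0.06, C8G from 0.15 to 0.28, the upstream CFB probe set from 0.80 to 0.06 and the upstream SERPIND1 probe set from 0.60 to 0.15. PROC was -0.19, the upstream C8G probe set 0.40 and the KNG1 probe set that fell -0.34. Over the 35 members the median absolute difference went from 0.13 to 0.07 and 6 changed sign, and the standard error was 1.58 times that without the covariate at the median. Since the groups did not overlap in the mean 3' minus 5' signal, group and RNA integrity cannot be told apart.

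**Figure D5:**
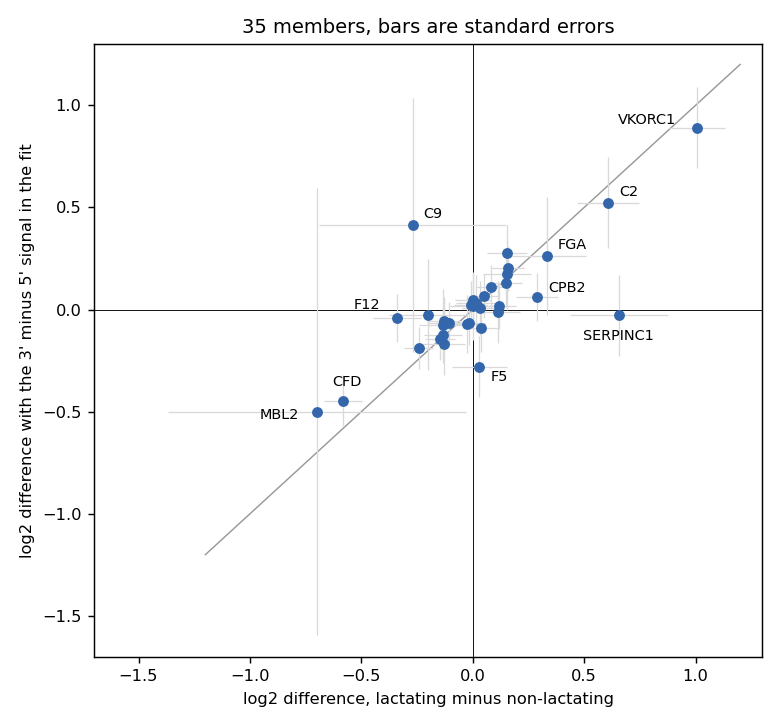
Log2 difference of the 35 members (lactating minus non-lactating) without (x axis) and with (y axis) the 3' minus 5' signal in the fit, with standard errors as bars and the line of equal values in grey. VKORC1, C2 and CFD read 0.89, 0.52 and -0.45 with the covariate, and SERPINC1 and C9 lie farthest from the line, at -0.03 and 0.41.

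Other genes of both systems were taken from a list of 61, of which 38 were measured and 8 called (21.1%, beside 8.64% of all genes under updated symbols). As the list was chosen with earlier results of these data known, these shares do not test it. The list contains cell-surface and extracellular partners of the members, and 4 of the 8 rose while 4 fell. Another 3 had an unadjusted p below 0.05 only.

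Among the partners that handle secreted or bound proteins, LMAN1 rose by 0.85 ± 0.14 (adjusted p = 0.0142). LMAN1 is the cargo receptor that carries factors V and VIII out of the endoplasmic reticulum. F5 and F8 themselves differed by 0.03 and 0.04. CPN1, the catalytic chain of the carboxypeptidase that inactivates anaphylatoxins, rose by 0.44 ± 0.09 (adjusted p = 0.0273), and its other probe set by 0.97. ANXA2 and S100A10, which together bind plasminogen at cell surfaces, rose by 0.78 ± 0.19 (adjusted p = 0.0393) and 0.41 ± 0.11 (adjusted p = 0.0481). With single pools left out, LMAN1 kept its call in all 8 repeats, while CPN1 lost it in 6, ANXA2 in 7 and S100A10 in 8. With the 3' minus 5' covariate none of the 8 partners was called, and 5 had an unadjusted p below 0.05. The differences were then 1.02 ± 0.22 for LMAN1, 0.31 ± 0.14 for CPN1, 0.55 ± 0.29 for ANXA2 and 0.12 ± 0.12 for S100A10, and among those that fell -0.42 ± 0.17 for CD55, -0.44 ± 0.15 for CD59, -0.35 ± 0.10 for SERPINA1 and -0.81 ± 0.27 for THBD.

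Of the 4 that fell, CD55 and CD59 are membrane regulators that protect host cells from complement. CD59 fell by 0.56 ± 0.10 on the log2 scale (adjusted p = 0.0174) and kept the call in all 8 repeats, and its dimmer probe set differed by -0.16 (adjusted p = 0.433). CD55 fell by 0.71 ± 0.13 on the log2 scale (adjusted p = 0.0179), with pools between 4.03 and 5.26 and a mean of 4.70, within the dimmest 30% of probe sets, so that the filter on dim probe sets removed it, and lost the call without non-lactating pool 1 (adjusted p = 0.0541). SERPINA1, alpha-1-antitrypsin, fell by 0.32 ± 0.06 on the log2 scale (adjusted p = 0.0212). Its pools were 14.34, 14.37, 14.35 and 14.28 in the non-lactating and 14.01, 13.99, 14.02 and 14.02 in the lactating group, and it lost the call without non-lactating pool 1 or lactating pool 4 (adjusted p = 0.0597 and 0.0526).

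THBD, thrombomodulin, the endothelial receptor on which thrombin activates protein C, fell by 0.75 ± 0.17 on the log2 scale (adjusted p = 0.0309). Lactating pool 4 reached the lowest non-lactating pool, and the call was lost in 6 of the 8 repeats. PROCR, the endothelial protein C receptor, differed by -0.44 ± 0.15 (adjusted p = 0.120). Of 10 measured endothelial markers, 3 fell (PECAM1, CDH5 and TEK) and 7 did not pass, while 8.64% of all genes under updated symbols were called. The mean log2 signal of the marker list was 7.30 to 7.41 in non-lactating and 7.13 to 7.22 in lactating pools, and the part of endothelial cells in the THBD value was not tested. Among 9 measured hepatocyte markers, SERPINA1 was the 1 that fell and 8 did not pass, with list means of 13.50 to 13.64 and 13.49 to 13.62.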

How the data were processed

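Liver RNA of 4 lactating and 4 non-lactating pools, each of 2 sows, was hybridised to Affymetrix porcine arrays. Signals of 24123 probe sets were deposited by the authors on the log2 scale, made with Affymetrix Expression Console and RMA per the submitters' processing notes, which state no versions. RMA corrects background, makes the distributions of the arrays equal and summarises probes, so a shift shared by most transcripts cannot be seen. A deposited table of the same log2 values rounded to 2 decimals differed by at most 0.005 and served as an alternative.

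After 124 control probe sets were left out, 23999 were fitted with limma 3.58.1 (lmFit and eBayes, R 4.3.3, the data.table package, version 1.17.8), lactating minus non-lactating, 2-sided, and p-values were adjusted over all of them by the method of Benjamini and Hochberg. Python 3.11.15 with pandas 2.3.3, numpy 2.4.6, scipy 1.17.1 and matplotlib 3.10.9 did the rest. Every adjusted p of a gene comes from limma unless a permutation test is named. A single deposited symbol was present for 11230 probe sets, and Entrez identifiers matched 9065 of them to the Sscrofa11.1 gene table. The fit was tested on simulated data. The number of arrays limits the precision.

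The members, roles and lists were chosen with earlier results of these data known. Pool values are given for members past the threshold or with separate groups, and for the 3 of each role with the smallest p where fewer were so. Of the other pathway genes, those past the threshold are named. Lists of liver regulators, acute phase proteins and markers of hepatocytes, endothelial cells, macrophages, stellate cells, platelets, neutrophils, cholangiocytes and adipocytes were also read. Alternatives were each pool left out, pool number as a block, other normalisations, a filter on dim probe sets, other variance models, the 3' minus 5' signal as a covariate, updated symbols and the mean of a gene's probe sets. Exact permutation tests were run on single values over pools. A search for promoter motifs was not run, as no sequences were used here.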

Additional observations from a re-analysis of the deposited data

Results flagged for a closer look

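In each group of 4 pools, the highest and the lowest pool of each of the 35 members and of the mean 3' minus 5' signal were set against the other 3, which gave 72 groups. In 4 of them 1 pool lay far from the others, its distance to the nearest making up most of the whole range, past Dixon's 95% critical value, which chance alone gives in about 1 of 20 groups, or about 3.6 of the 72. C5 read 12.86 in non-lactating pool 3 and 12.63 to 12.65 in the other non-lactating pools. C8A read 12.50 in lactating pool 1 and 12.38 to 12.40 in the other lactating pools. FGG read 14.51 in lactating pool 1 and 14.33 to 14.34 in the others. SERPING1 read 13.64 in lactating pool 4 and 13.85 to 13.88 in the others.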

How the results depend on the processing

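With 1 pool left out in turn, the count of called members was 0 to 1 of 26 by deposited symbol (0 without non-lactating pools 1, 2 and 4 and lactating pools 1, 2 and 3) and 2 to 3 of 35 under either symbol, that of probe sets 406 to 1424 (406 and 646 when non-lactating pools 1 and 4 were omitted, 872, 775 and 598 for lactating pools 2, 3 and 4), that of genes 161 to 622 (161, 471 and 259 without non-lactating pools 1, 3 and 4, and 358, 317 and 250 without the same lactating pools) and that of other pathway genes 2 to 5 (2 without non-lactating pool 1). Each of these fits had 1 pool fewer, and the counts differed with the pool left out. Members called by deposited symbol numbered 2 with cyclic loess and 2 with a trended, robust variance, PROC joining C2 in both, and 3 with updated symbols. Cyclic loess gave 5 other pathway genes and a member median of -0.053. An equal variance test in place of limma called 0 of the probe sets, genes, members and other pathway genes, with 4964 probe sets, 2088 genes, 7 of 26 and 10 of 35 members and 10 other pathway genes at an unadjusted p below 0.05, and the lowest adjusted p among the members was 0.0526, for VKORC1, CFD and PROC. The 3' minus 5' covariate also gave 0 for each of them, with 2474, 971, 1, 3 and 5 at an unadjusted p below 0.05. None of the members called and of the 8 other pathway genes called changed sign under these settings. For the acute phase genes and the other cell type markers the settings were not read gene by gene. None of those genes was called with the equal variance test or with the covariate, since no probe set was. The labels do not say whether pools of equal number are paired, and pairing was not tested. Correlations were 0.24, 0.09, 0.07 and 0.22 between pools of equal number and -0.23 to 0.24 between pools of unequal number. With pool number as a block in limma, 1790 probe sets were called. The block also gave 1 member by deposited symbol and 6 other pathway genes, S100A10 (adjusted p = 0.0632) and THBD (0.0567) being lost. The 95% confidence interval lay between -0.5 and 0.5 for 25 of the 35 members, which is what 4 pools per group allow.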

Other observations

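Of 23 listed regulators of liver secreted protein genes, 17 were measured. None passed the limma threshold, and 5 had an unadjusted p below 0.05. FOXA3 and CEBPA, liver transcription factors, differed by 0.44 ± 0.16 (adjusted p = 0.135) and 0.37 ± 0.15 (adjusted p = 0.175). CREB3L3, a factor of the endoplasmic reticulum membrane that in mouse induces CRP, differed by 0.47 ± 0.18 (adjusted p = 0.139). RELA, an NF-kB subunit, differed by 0.24 ± 0.07 (adjusted p = 0.0775), and ESR1, the oestrogen receptor, by -0.23 ± 0.09 (adjusted p = 0.175) at a dim signal of 5.21.

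Among markers of other liver cells, 1 of 9 measured macrophage markers fell (MRC1, -0.39 ± 0.08, adjusted p = 0.0240). List means were 8.60 to 8.84 in non-lactating and 8.48 to 8.63 in lactating pools. Of the 9, 3 had a positive and 6 a negative difference. CD163 differed by 0.24 ± 0.08 and did not pass (adjusted p = 0.0921). Of 8 stellate cell and fibroblast markers 2 fell, DCN by 0.88 ± 0.15 (adjusted p = 0.0141) and BGN by 0.45 ± 0.08 on the log2 scale (adjusted p = 0.0185), with list means of 8.66 to 8.95 and 8.33 to 8.72. Of all genes under updated symbols, 8.64% were called. None of 3 platelet, 3 neutrophil and 4 cholangiocyte markers passed. Their list means were 6.20 to 6.56 and 6.20 to 6.25 for platelets, 4.05 to 4.65 and 4.11 to 4.24 for neutrophils, and 5.41 to 6.09 and 5.59 to 5.78 for cholangiocytes, non-lactating pools first.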
